A study of Mus musculus with 13 samples.

Results

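The genes of MHC class II antigen presentation were followed in parametrial white adipose tissue (pmWAT) of mice labelled *Lmna* fl/fl or *Lmna* iADKO. The 10 genes were taken by symbol from the 33618 genes of the count table, and all 10 were among the 16753 genes that passed the filter on low counts. They encode the classical class II molecules (*H2-Aa*, *H2-Ab1*, *H2-Eb1*), the invariant chain (*Cd74*), the H2-DM peptide exchange factor (*H2-DMa*, *H2-DMb1*, *H2-DMb2*), its inhibitor H2-O (*H2-Oa*, *H2-Ob*) and the class II transactivator (*Ciita*). Bulk RNA-Seq was done on whole pmWAT of 13 female mice, 7 fl/fl and 6 iADKO, with 1 library per mouse. In iADKO mice both floxed *Lmna* alleles, which encode the nuclear lamins A and C, are combined with a tamoxifen-inducible Cre under the *Adipoq* promoter, so that recombination is directed to adipocytes. Controls carried the floxed alleles without Cre. All mice, controls included, were given tamoxifen at 50 mg/kg for 5 days at 12 to 14 weeks of age, and the fat pads were taken 2 weeks afterward.

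Class II molecules present peptides from endosomes to CD4+ T cells. Dendritic cells, B cells and many macrophages express them constitutively, and other cells can be induced to do so by interferon γ. The invariant chain blocks the peptide groove until endosomal proteases trim it, H2-DM then exchanges the remaining fragment for other peptides, and H2-O holds H2-DM back, mostly in B cells. Transcription of these genes depends on CIITA, a coactivator that docks onto the RFX, CREB and NF-Y factors bound at the X and Y boxes of class II promoters.

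Library totals ran from 18854223 to 19776491 gene-assigned counts, and levels are given as library-size scaled counts (CPM) after TMM normalization. *Lmna*, the check of the labels, was at 74.7 to 98.5 CPM in the libraries labelled fl/fl and at 80.1 to 109 CPM in those labelled iADKO. It was not lower in iADKO (log2 fold change 0.19, standard error 0.079, edgeR adjusted p = 0.0785), and counts for the whole gene do not show the floxed exons apart, so each direction here rests on the labels. Adipocyte markers were abundant in all 13 mice, with a summed level of 8 genes of 10371 to 19737 CPM in fl/fl and 6992 to 12139.8 CPM in iADKO, and all 8 were lower in iADKO. Replicate 5 of fl/fl was the lowest of its group in that sum and replicate 6 of iADKO the highest of its group. Counts on class II genes without these 2 mice are therefore given as well. In whole tissue, fewer cells of a type and less RNA per cell cannot be told apart.

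The promoters of the members share short motifs. The letters TGATTGG, a Y box that holds the CCAAT site of NF-Y on the other strand, were found on either strand in the 250 bases before the annotated start in 6 of 10 members, against 8.22% of 17965 promoters. The letters AGCAAC, from the core of the X box, were found in 3 of 10, against 11.4%. Both were present in *H2-Eb1* and *H2-Ob*, against 1.04% of promoters, and the motifs do not overlap in letters. They were chosen after the members' promoters had been seen. The 110 bases up to the start are shown for the 3 classical genes, which were the most abundant members apart from *Cd74*, for *H2-DMb2* and for *H2-Oa*, whose windows hold at most 20 exonic bases. The windows of *H2-DMb1* and *Ciita*, with 0 exonic bases and neither string, are not shown. Of the windows with a Y box, that of *H2-DMa* is annotated as exon in all 110 bases and that of *H2-Ob* in 53. Sequence was read from GRCm39 5′ to 3′ on the strand of the gene, with TGATTGG and AGCAAC in capitals. The windows are chr17:34506798-34506907 (minus strand) for *H2-Aa*, chr17:34482073-34482182 (plus) for *H2-Ab1*, chr17:34524703-34524812 (plus) for *H2-Eb1*, chr17:34364064-34364173 (plus) for *H2-DMb2* and chr17:34311204-34311313 (plus) for *H2-Oa*.
H2-Aa: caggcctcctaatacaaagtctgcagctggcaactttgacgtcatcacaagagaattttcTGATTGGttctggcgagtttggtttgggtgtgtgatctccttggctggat
H2-Ab1: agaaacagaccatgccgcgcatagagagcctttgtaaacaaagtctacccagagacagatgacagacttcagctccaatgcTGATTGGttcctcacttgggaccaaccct
H2-Eb1: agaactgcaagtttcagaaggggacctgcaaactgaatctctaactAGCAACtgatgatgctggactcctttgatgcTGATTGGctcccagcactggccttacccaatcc
H2-DMb2: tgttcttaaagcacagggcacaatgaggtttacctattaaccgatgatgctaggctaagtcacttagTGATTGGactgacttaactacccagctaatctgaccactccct
H2-Oa: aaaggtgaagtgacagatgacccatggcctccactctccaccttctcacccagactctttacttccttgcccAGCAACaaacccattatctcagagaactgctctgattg

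In the 6 members with the Y box, its first letter lay 16 to 50 bases before the start, always on the strand of the gene. *H2-DMb1*, *Cd74* and *Ciita* held neither string, which says only that these letters are not in their windows. The match is a description of the sequence and not evidence of binding in this tissue.

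**Figure D1:**
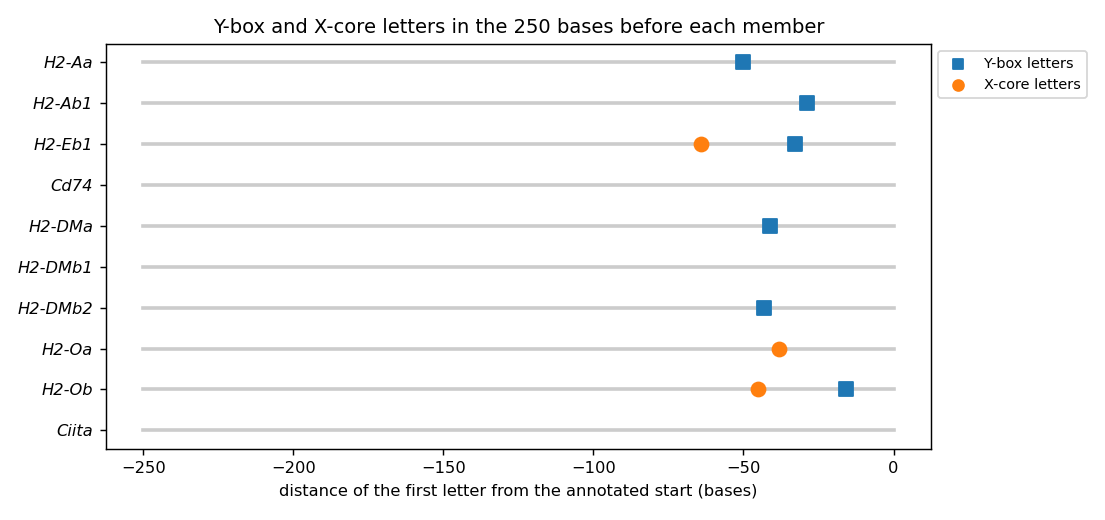
Position of the first letter of the Y-box and X-core strings in the 250 bases before the annotated start of each member, in bases from the start, with gray lines for the windows searched. The 6 Y-box matches lie within 50 bases of the start, and 3 members have neither string.

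Of the 10 members, 9 were higher in iADKO at an adjusted p under 0.05 (edgeR's quasi-likelihood test), against 14.1% of all genes tested. None was lower by edgeR, also at an unadjusted p under 0.05 (0 of 10), against 16.3% of all genes at the adjusted threshold. The median log2 fold change of the members was 0.79, beside 0.03 over all genes. Of all calls, 46.4% were higher. With library totals in place of TMM this share was 85.3%, the median of all genes moved from 0.033 to 0.236, and all 10 members were higher. In 7 members every iADKO mouse was above every fl/fl mouse, a pattern found in 2.71% of all genes. The exceptions were *H2-DMb2*, *H2-Oa* and *H2-Ob*, the members with the lowest counts.

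The 3 classical genes were higher by almost the same amount. *H2-Aa*, the α chain of I-A (chromosome 17, 34493404 to 34506798, minus strand), was at 317, 370.4, 332, 451, 508, 357 and 468 CPM in fl/fl replicates 1 to 7. The values in iADKO replicates 1 to 6 were 656, 806, 713, 822, 632 and 662 CPM. The lowest iADKO mouse was above the highest fl/fl mouse, and the mean was 400.5 ± 74.4 CPM (SD, n = 7) against 715 ± 81.2 CPM (SD, n = 6). The log2 fold change was 0.84 (standard error 0.12, edgeR adjusted p = 0.000412). An exact two-sided permutation test over the 1716 ways to assign 13 mice gave p = 0.000583, the smallest it can give.

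*H2-Ab1*, the β chain of I-A (chromosome 17, 34476663 to 34488393, plus strand), was at 218 to 363 CPM in fl/fl (median 272) and 447 to 587 CPM in iADKO (median 486). Its log2 fold change was 0.80 (standard error 0.12, edgeR adjusted p = 0.000616). *H2-Eb1*, the β chain of I-E (chromosome 17, 34504236 to 34535648, plus strand), was at 208 to 319 CPM in fl/fl (median 247) and 434 to 549.7 CPM in iADKO (median 455), with a log2 fold change of 0.83 (standard error 0.10, edgeR adjusted p = 0.000266). Neither gene overlapped between genotypes. Replicates 2 and 4 of iADKO had the highest levels of *H2-Aa*, *H2-Ab1* and *H2-Eb1* in their group. In fl/fl the highest levels were in replicates 4, 5 and 7. *H2-Ea*, which encodes the α chain of I-E, is not analysed here. The gene spans of *H2-Aa* and *H2-Eb1*, introns included, overlap by 2563 bases on opposite strands in GENCODE vM39. The libraries were strand specific, but the strand setting used for counting is not given in the sources used here.

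*Cd74*, the invariant chain that chaperones class II molecules, was the most abundant member. It was at 508 to 762 CPM in fl/fl (median 590.3) and 929.9 to 1363 CPM in iADKO (median 1017), with no overlap. Its means were 619 ± 88.4 (SD, n = 7) and 1094 ± 176 CPM (SD, n = 6), and its log2 fold change was 0.82 (standard error 0.12, edgeR adjusted p = 0.000406). Ratios between genes were taken on CPM per kilobase (kb) of exon and not on plain CPM. On that scale, *Cd74* over the summed classical genes was 0.803 ± 0.0515 (SD, n = 7) in fl/fl and 0.796 ± 0.0591 (SD, n = 6) in iADKO. The difference was smaller than the spread between mice.

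**Figure D2:**
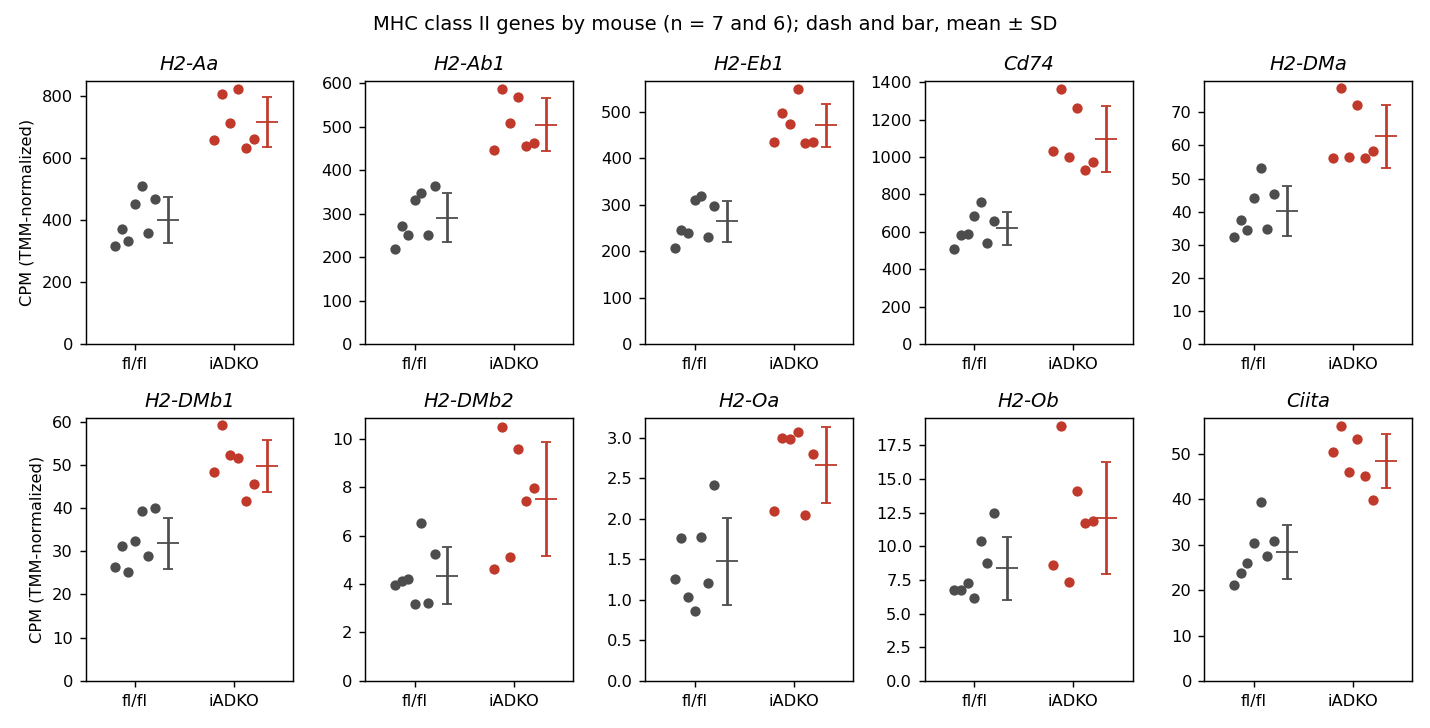
Level of each member in CPM on linear axes from 0, with each point a mouse (gray, 7 fl/fl; red, 6 iADKO) and the dash and bar showing the mean ± SD. The genotypes are separated in 7 panels and overlap for *H2-DMb2*, *H2-Oa* and *H2-Ob*.

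The genes of peptide exchange were higher as well. *H2-DMa*, the α chain of H2-DM (chromosome 17, 34338515 to 34358958, plus strand), was at 32.5 to 53.3 CPM in fl/fl (median 37.4) and 56.1 to 77.2 CPM in iADKO (median 57.5). *H2-DMb1*, a β chain of H2-DM (chromosome 17, 34372046 to 34379204, plus strand), was at 25.1 to 39.9 CPM in fl/fl (median 31.2) and 41.7 to 59.2 CPM in iADKO (median 50.0). Both genes were separated between genotypes, each with a log2 fold change of 0.64 (edgeR adjusted p = 0.0021 for *H2-DMa* and 0.00149 for *H2-DMb1*). *H2-DMb2*, the other β chain (chromosome 17, 34362197 to 34370529, plus strand), was lower in level, at 3.17 to 6.53 CPM in fl/fl and 4.62 to 10.5 CPM in iADKO. It overlapped between genotypes but was higher in iADKO (log2 fold change 0.79, standard error 0.22, edgeR adjusted p = 0.0136). The transcripts of both β chain genes were 94.3% identical over 1129 aligned bases, and 13.7% of their 100-base windows were shared, so the division of reads between them is uncertain. The gene span of *H2-DMa*, introns included, overlaps that of *Brd2* by 3231 bases on the opposite strand. Per kb of exon, H2-DM in proportion to the classical genes was 0.0993 ± 0.00627 (SD, n = 7) in fl/fl and 0.0883 ± 0.0046 (SD, n = 6) in iADKO, with overlapping ranges.

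H2-O, the inhibitor of H2-DM, was the least abundant pair. *H2-Oa*, its α chain (chromosome 17, 34311314 to 34314328, plus strand), was at 0.859 to 2.42 CPM in fl/fl (median 1.26) and 2.05 to 3.07 CPM in iADKO (median 2.89). *H2-Ob*, its β chain (chromosome 17, 34457836 to 34473388, plus strand), was at 6.17 to 12.5 CPM in fl/fl (median 7.28) and 7.36 to 18.9 CPM in iADKO (median 11.8). Both genes overlapped between genotypes. *H2-Oa* was higher in iADKO (log2 fold change 0.85, standard error 0.22, edgeR adjusted p = 0.0105), whereas *H2-Ob* did not pass (log2 fold change 0.53, standard error 0.22, edgeR adjusted p = 0.081). *H2-Ob* varied the most between iADKO mice relative to its mean, at 8.61, 18.9, 7.36, 14.1, 11.7 and 11.9 CPM in replicates 1 to 6. *H2-DMb2* had the same 2 low mice, replicates 1 and 3, at 4.62 and 5.1 CPM. Per kb of exon, H2-O in proportion to H2-DM was 0.0816 ± 0.015 (SD, n = 7) in fl/fl and 0.0819 ± 0.0106 (SD, n = 6) in iADKO.

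*Ciita*, the coactivator of class II genes (chromosome 16, 10297923 to 10347694, plus strand), was at 21.1, 23.7, 26, 30.3, 39.4, 27.4 and 30.9 CPM in fl/fl replicates 1 to 7. The values in iADKO replicates 1 to 6 were 50.3, 56.2, 46, 53.3, 45.2 and 39.9 CPM. The genotypes were separated by a narrow margin, between fl/fl replicate 5 and iADKO replicate 6. *Ciita* was higher in iADKO (log2 fold change 0.77, standard error 0.13, edgeR adjusted p = 0.000856; exact two-sided permutation p = 0.00117). In proportion to the classical genes, per kb of exon, it was at 0.00833 ± 0.00081 (SD, n = 7) in fl/fl and 0.00807 ± 0.000711 (SD, n = 6) in iADKO. The gene span of *Ciita*, introns included, overlaps that of *Dexi* by 29935 bases on the opposite strand, more than the 11041 bases of *Ciita* exon. The overlap of exons was not measured. Whole-gene counts do not separate the alternative promoters of *Ciita*.

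Per kilobase of exon, the members spanned a wide range of levels in iADKO. *Cd74* was at 435 ± 70.1 CPM per kb (SD, n = 6), followed by *H2-Ab1* at 197 ± 23.7, *H2-Eb1* at 182 ± 18 and *H2-Aa* at 167 ± 18.9. All 3 classical genes were below *Cd74* beyond their spread, and among themselves their ranges over mice overlapped (174 to 229, 167 to 212 and 147 to 192 CPM per kb). Within each mouse *H2-Ab1* was above *H2-Aa* on this scale, by a ratio of 1.14 to 1.3. That order rests on the exon lengths used, 2568 bases for *H2-Ab1* and 4292 for *H2-Aa*. In plain CPM *H2-Aa* was above *H2-Ab1* in every mouse. With the longest transcript as gene length, *H2-Ab1* was at 346 ± 41.6 and *H2-Eb1* at 265 ± 26.2 CPM per kb. *H2-DMb1* at 29.6 ± 3.63 and *H2-DMa* at 14.5 ± 2.18 CPM per kb came next. *Ciita* at 4.39 ± 0.536 and *H2-DMb2* at 4.04 ± 1.27 overlapped, as did *H2-Ob* at 2.23 ± 0.759 and *H2-Oa* at 1.74 ± 0.305. The order was the same in fl/fl. Which members overlapped depended on the gene length used. With the longest transcript, *H2-Ob* at 2.67 to 6.85 and *H2-Oa* at 1.53 to 2.29 CPM per kb did not overlap in iADKO. On that length *H2-DMb1* at 29.7 to 42.2 and *H2-DMa* at 27.1 to 37.2 CPM per kb did.

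The difference was examined within series of library numbers. The labels carry the numbers without saying what they mark, and their division into series was made here. Number 765, an iADKO mouse, stands apart from the other numbers of its series. Only this division was used, and the values within series depend on it. Numbers 706 to 707 were both fl/fl and 974 to 975 both iADKO, so these 4 of 13 mice add nothing to the comparison within series, and there series and genotype cannot be told apart. Among numbers 722 to 727 (2 fl/fl and 2 iADKO mice), the difference in mean log2 CPM was above 0 for all 10 members, with a median of 0.62 and a range of 0.42 to 1.18. Replicate 5 of fl/fl and replicate 6 of iADKO both belong to this series, so the comparison within it includes the 2 mice set apart above. Among numbers 747 to 765 (3 fl/fl and 2 iADKO mice), it was also above 0 for all 10, with a median of 0.98 and a range of 0.76 to 1.17. With the series as a block, 9 members were higher in iADKO, against 4.68% of all genes. In that fit *H2-Ob* passed (log2 fold change 0.84, edgeR adjusted p = 0.0493) and *H2-DMb2* did not (0.87, edgeR adjusted p = 0.0578). Without fl/fl replicate 5 and iADKO replicate 6, 9 members were higher, against 19.6% of all genes in that fit.

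Among 13844 other genes ranked by how closely their levels followed the mean of *H2-Aa*, *H2-Ab1*, *H2-Eb1* and *Cd74* over the 13 mice, the closest was *Cdt1*, a DNA replication licensing factor, with a mean absolute difference of 0.0956 on the log2 scale. It was followed by *Psd4* (0.105), *Wdfy4* (0.108), which is needed for cross-presentation by dendritic cells, and *Cd4* (0.115), the coreceptor that binds class II. *Abcg3* (0.12), *Fhl3* (0.121), *Dock8* (0.126) and *Gm50107* (0.128) completed the 8. By the same measure the members *H2-DMa* (0.0923), *Ciita* (0.0999) and *H2-DMb1* (0.114) lay close to that mean. *H2-Oa* (0.234), *H2-DMb2* (0.281) and *H2-Ob* (0.287), the members with the lowest counts, lay farther from it. Among the 16753 genes tested they were still at ranks 675, 1526 and 1697. When the mean of each genotype was subtracted, 0 of the 8 genes remained among the closest 8.

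Of 7 genes for the factors that CIITA docks onto, 1 was higher in iADKO and none lower (2 and 0 at an unadjusted p under 0.05). Without fl/fl replicate 5 the higher count was 2. Over all genes tested, 14.1% were higher and 16.3% lower, and the counts of this list and of those below are to be read beside these shares. *Nfya*, a subunit of NF-Y, averaged 40.4 ± 6.9 CPM in fl/fl (SD, n = 7) against 52.9 ± 6.9 CPM in iADKO (SD, n = 6) (log2 fold change 0.39, standard error 0.11, edgeR adjusted p = 0.0175). The RFX subunits *Rfx5* (0.05), *Rfxap* (-0.01) and *Rfxank* (0.04), the other NF-Y subunits *Nfyb* (0.04) and *Nfyc* (-0.07) and *Creb1* (0.15) did not pass, each value being a log2 fold change. The groups overlapped in all 7 genes.

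Of 9 genes of endosomal processing, 4 were higher in iADKO and none lower. These were *Ifi30*, the thiol reductase GILT (log2 fold change 0.85, edgeR adjusted p = 0.011), *Lgmn*, the asparaginyl endopeptidase (0.78, adjusted p = 0.0134), *Ctsz* (0.62, adjusted p = 0.00374) and *Ctsh* (0.50, adjusted p = 0.00992), which encode cathepsins. *Ctss*, the cathepsin that makes the last cut in the invariant chain, was at 118 to 534 CPM in fl/fl and 271 to 462 CPM in iADKO and did not pass (log2 fold change 0.85, standard error 0.35, edgeR adjusted p = 0.0806). Its highest value was in fl/fl replicate 5, and its lowest in iADKO was in replicate 6. *Ctsl* (0.19), *Ctsb* (0.20), *Ctsd* (0.06) and *Sppl2a* (0.06), the intramembrane protease that clears the last invariant chain fragment, did not pass.

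Of 9 genes of surface turnover and costimulation, 8 were tested, 5 were higher in iADKO and 1 was lower. *Cd83*, which stabilizes class II at the surface, was at 12.6 to 26.8 CPM in fl/fl and 23.5 to 43.2 CPM in iADKO (log2 fold change 1.11, standard error 0.18, edgeR adjusted p = 0.000828). *Cd86*, a ligand of CD28, had a log2 fold change of 0.67 (edgeR adjusted p = 0.000673), and *Marchf1*, the ubiquitin ligase that removes class II and CD86 from the surface, of 0.66 (edgeR adjusted p = 0.0097). The gene that was lower was *Marchf8*, a related ligase (log2 fold change -0.13, edgeR adjusted p = 0.0416), which is named after its values were seen. That call was lost in 10 of 13 fits without 1 mouse, all but those without fl/fl replicate 3, fl/fl replicate 7 or iADKO replicate 6, and with library totals the value was 0.07.

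Of 10 genes of interferon γ signalling and induction of *Ciita*, 9 were tested, 3 were higher and 1 was lower. *Spi1* (PU.1) and *Irf8*, myeloid transcription factors, had log2 fold changes of 0.88 (edgeR adjusted p = 0.00569) and 0.67 (edgeR adjusted p = 0.00279). *Ifng* itself was at 0 to 0.216 CPM in fl/fl and 0 to 0.288 CPM in iADKO and was not tested.

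Of 10 interferon γ target genes, 1 was higher and none lower (1 and 1 at an unadjusted p under 0.05). *Cxcl10*, a chemokine for T cells, was at 1.59 to 4.15 CPM in fl/fl and 8.13 to 10.9 CPM in iADKO (log2 fold change 1.69, standard error 0.19, edgeR adjusted p = 0.000162). *Cxcl9*, a related chemokine, averaged 30.4 ± 10 CPM in fl/fl (SD, n = 7) against 20.6 ± 4.31 CPM in iADKO (SD, n = 6) and did not pass (log2 fold change -0.56, edgeR adjusted p = 0.0627). *Socs1*, a feedback inhibitor, did not pass either (0.24, edgeR adjusted p = 0.431). The median log2 fold change of these 10 genes was 0.02, beside 0.03 over all genes and 0.79 for the class II members. A part of interferon γ in the class II result was not tested.

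Genes that neighbour the class II members on chromosome 17 were also examined. The 8 members of that cluster lie within 224 kb. Of 6 other genes of the locus that were tested, 3 were higher and none lower. *H2-Eb2*, a second E β gene, was at 0.659 to 1.83 CPM in fl/fl and 1.46 to 2.88 CPM in iADKO (log2 fold change 1.01, edgeR adjusted p = 0.0121). *Psmb8*, an immunoproteasome subunit for class I peptides, had a log2 fold change of 0.34 (edgeR adjusted p = 0.00652), and the class I peptide transporter gene *Tap1* did not pass (0.24, edgeR adjusted p = 0.0537). Over all 49 pathway genes tested, 17 were higher and 2 lower, with a median log2 fold change of 0.15. The shares over all genes tested were 14.1% higher and 16.3% lower.

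**Figure D3:**
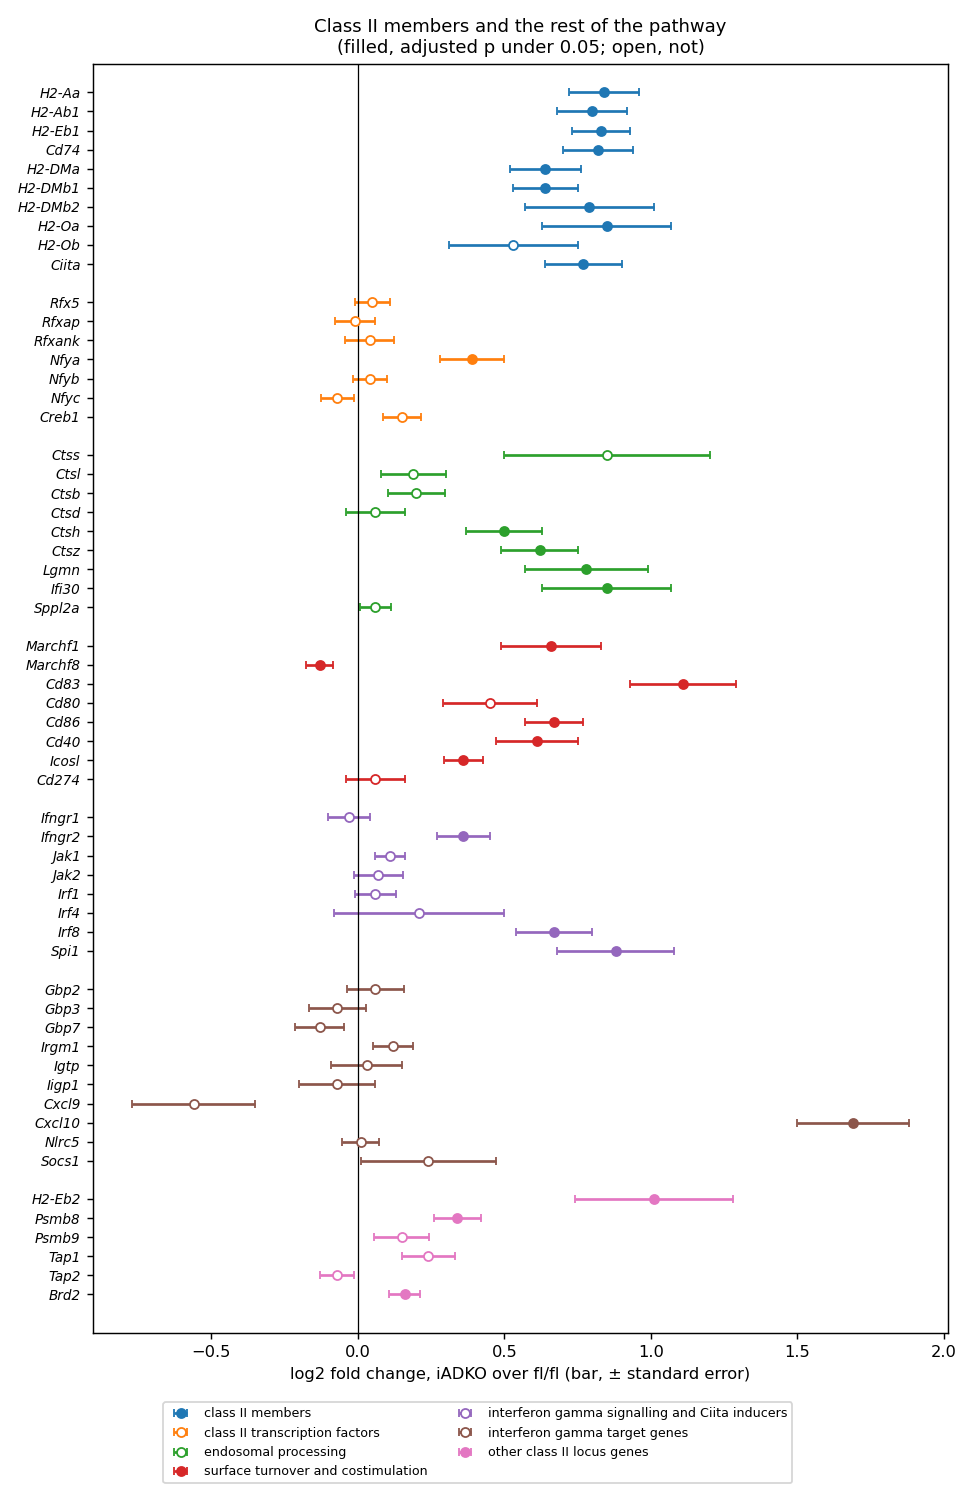
Log2 fold change of iADKO over fl/fl with its standard error for the 10 members and the other pathway genes reported, colored by list, filled where the adjusted p was under 0.05. The members lie between 0.53 and 0.85, the RFX and NF-Y genes lie near 0 apart from *Nfya*, and *Cxcl10* has the highest value at 1.69.

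Markers of cells that carry class II, and of other cells, were then counted, beside 14.1% of all genes tested that were higher and 16.3% that were lower. Of 10 macrophage markers, 5 were higher in iADKO and none lower, and their summed level was 1897 to 5044 CPM in fl/fl and 2869 to 4961 CPM in iADKO. The highest of all 13 mice was fl/fl replicate 5 and the lowest in iADKO was replicate 6. *Lyz2* made up 3086 CPM of the sum in fl/fl replicate 5. Without it, a choice made after seeing the data, that mouse was at 1958 CPM, the other fl/fl mice at 1063 to 1377 CPM and the iADKO mice at 1310.3 to 2245 CPM. *Mrc1* passed (log2 fold change 0.39, edgeR adjusted p = 0.0154), as did *Csf1r* (0.49, adjusted p = 0.0331), and *Lyz2* did not (0.72, adjusted p = 0.103). The *Csf1r* call was lost in 11 of 13 fits without 1 mouse, all but those without fl/fl replicate 5 or iADKO replicate 6. With the library-number series as a block, 0 macrophage markers passed by edgeR, in a fit where 4.68% of all genes were higher. Counts of the other marker lists in that fit are not given here.

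Of 10 dendritic cell markers, 7 were higher and none lower, with a summed level of 176 to 342 CPM in fl/fl and 251 to 355 CPM in iADKO. Log2 fold changes were above 0 in 8 of the 10. *Clec10a* (0.33, edgeR adjusted p = 0.0458) and *Itgax* (1.01, adjusted p = 0.0429) passed, and *Zbtb46* did not (-0.14, adjusted p = 0.0546). The count of 7 was 3 to 7 without 1 mouse, falling to 3 or 4 without any 1 of fl/fl replicates 1, 2 and 6 and iADKO replicates 1 to 5, and 4 with no filter on low counts. The call of *Itgax* was lost in 10 and that of *Clec10a* in 9 of these 13 fits. Of 10 B cell markers, 3 were higher and none lower, with a summed level of 33.3 to 86.1 CPM in fl/fl and 66.1 to 137 CPM in iADKO. The count of 3 was 1 without any 1 of fl/fl replicates 1, 2, 3, 4 and 6 and iADKO replicates 2, 4 and 5, 5 without fl/fl replicate 7, 1 with no filter and 9 with library totals. Over all genes, 1769 to 3319 were higher in the 13 fits without 1 mouse. With no filter 1623 of 33618 genes were higher, and with library totals 7397 of 16753. *Cd22* passed (0.99, edgeR adjusted p = 0.0117), also in all 13 fits without 1 mouse. *Cd79a* passed only narrowly (0.66, edgeR adjusted p = 0.05 after rounding) and lost that call in 10 of these 13 fits. The B cell sum was 66.1 and 67.7 CPM in iADKO replicates 1 and 3, the mice with the lowest *H2-Ob* and *H2-DMb2* of their group, and 137 and 122 CPM in replicates 2 and 4, those with the highest.

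T cell markers had a summed level of 24 to 38.6 CPM in fl/fl and 40.8 to 48.4 CPM in iADKO, without overlap, and 3 of 8 were higher. Plasma cell markers were higher in 2 of 5, neutrophil markers in 2 of 6, lymph node stroma markers in 1 of 2 tested and epithelial markers in 2 of 4 tested. The lymph node stroma marker that passed was *Cxcl13* (log2 fold change 0.72, edgeR adjusted p = 0.0184), and *Ccl21a* (0.13, adjusted p = 0.699) was at 19.7 to 54.3 CPM in fl/fl and 25.4 to 44.6 CPM in iADKO. Without fl/fl replicate 4 the T cell count was 5, and without fl/fl replicate 5 the plasma cell count was 5. The neutrophil count was 1 without any 1 of fl/fl replicates 1, 2, 4, 6 and 7 and iADKO replicates 1, 2, 4 and 5. The epithelial count was 0 without any 1 of fl/fl replicates 1, 2, 4, 6 and 7 and iADKO replicates 3, 5 and 6, and 1 without fl/fl replicate 5. Epithelial markers summed to 269 CPM in iADKO replicate 6 and to at most 53.6 CPM in fl/fl. Endothelial markers were lower in 2 of 6. Adipose progenitor, mesothelial and skeletal muscle markers had no gene past the threshold by edgeR (6, 5 and 5 tested). At an unadjusted p under 0.05, 1 progenitor marker was higher and 1 lower, 1 mesothelial marker was higher and 0 muscle markers passed. At the adjusted threshold, 1 progenitor marker was higher without fl/fl replicate 5 and 2 without iADKO replicate 6, and 1 mesothelial marker was higher without fl/fl replicate 2 or 5. The part of these markers in the class II result was not tested beyond the fits that follow.

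**Figure D4:**
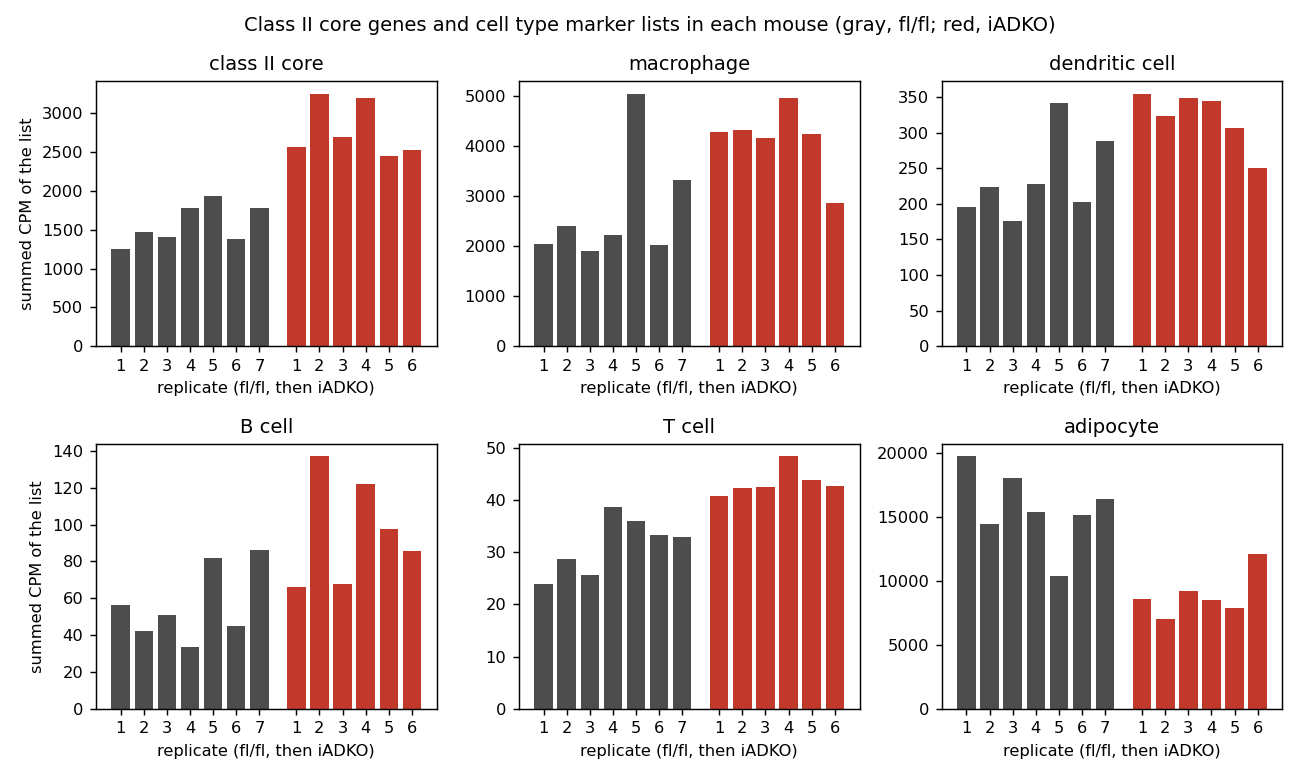
Summed CPM in each mouse (gray, fl/fl replicates 1 to 7; red, iADKO replicates 1 to 6) of *H2-Aa*, *H2-Ab1*, *H2-Eb1* and *Cd74* (class II core) and of 5 marker lists, on linear axes from 0. The class II core and the T cell list are separated by genotype, and the macrophage, dendritic cell, B cell and adipocyte sums overlap.

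Marker scores, the mean log2 CPM of a list in each mouse, were then added to the fit as covariates, 1 at a time. With the macrophage score, 5 members were higher in iADKO, against 1.71% of all genes. These were *H2-Aa* (log2 fold change 0.55), *H2-Ab1* (0.52), *H2-Eb1* (0.60), *Cd74* (0.57) and *Ciita* (0.43). With the B cell score, 7 were higher, against 2.86% of all genes, and *H2-Aa* was at 0.73. The genes that did not pass were *H2-DMb2* (0.25), *H2-Oa* (0.56) and *H2-Ob* (-0.03). With the adipocyte score, which was added after seeing the data, 0 of 10 were higher by edgeR, against 0.0239% of all genes, that is 4 of 16753. At an unadjusted p under 0.05, 2 members were higher in that fit, against 1147 of all genes. The log2 fold changes ran from -0.04 for *H2-Ob* to 0.62 for *H2-Oa*, with *H2-Eb1* at 0.43 and *Ciita* at 0.14. The adipocyte score was itself lower in iADKO, and its part and that of genotype cannot be told apart in these mice. The other scores differed with genotype as well. All 10 macrophage markers and all 10 B cell markers had log2 fold changes above 0, with medians of 0.53 and 0.74. The parts of these scores and of genotype cannot be cleanly told apart either.

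**Figure D5:**
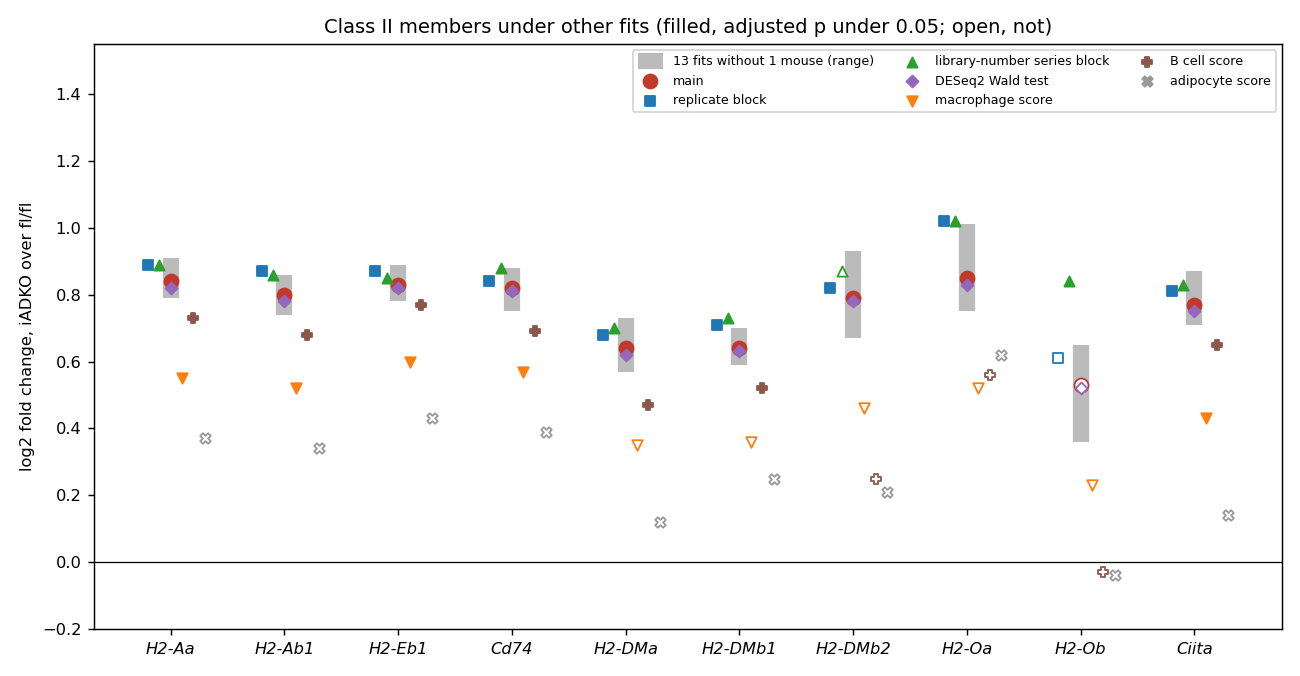
Log2 fold change of iADKO over fl/fl for each member in the main fit and in other fits, filled where the adjusted p was under 0.05, with gray bars for the range over 13 fits that each left out 1 mouse. All points lie above 0 except *H2-Ob* with the B cell score (-0.03) and the adipocyte score (-0.04), and no point of the adipocyte score is filled.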

How the data were processed

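Bulk RNA-Seq of pmWAT from 7 fl/fl and 6 iADKO mice was used, with genotypes and replicate numbers from the labels. The authors deposited raw counts per gene and log2 values (rlog, from DESeq2). Per the study's methods and the submitters' processing notes, strand-specific paired reads of 100 bases were checked with FastQC 0.12.1 and aligned with STAR 2.7.11a to mm39. The counting tool, its strand setting and the gene annotation are not given in the sources used here. The 10 members and all lists were chosen with earlier results of these data known.

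In R 4.3.3, counts were filtered with filterByExpr, normalized by TMM and tested with the robust quasi-likelihood test of edgeR 4.0.16, with Benjamini-Hochberg adjustment over 16753 genes and a threshold of 0.05. Log2 CPM used a prior count of 2. Single genes were also compared by exact two-sided permutation. GENCODE vM39 (GRCm39) held 33184 of the identifiers and all 10 members. Between mice of the same genotype, chi-square per degree of freedom was 8.9 to 98.7, so no library was a copy of another. The scripts were tested on simulated data.

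Genes named are the members, *Lmna*, every transcription factor and processing gene, the 3 largest absolute log2 fold changes of each other pathway list, at most 3 genes with the highest mean CPM of each marker list and the 8 genes most like the classical genes and *Cd74*. Genes named outside this rule are *Marchf8* and *Ifng*, chosen after their values were seen. Results for a few listed genes were left out of the text and figures, and list counts include them. Alternatives were DESeq2 size factors, library totals, DESeq2 1.42.0 with its Wald test, all genes without a filter, a minimum of 10 counts per mouse, blocks for the replicate number or for the library-number series, limma 3.58.1 on the deposited log2 values, marker scores as covariates, longest transcripts as gene length, and leaving out mice. The adipocyte score was added after the macrophage and B cell scores, with the data in view.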

Additional observations from a re-analysis of the deposited data

Results flagged for a closer look

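Of 152 tests for a sample far from its group (76 named genes, 2 groups each), 10 were past the limit, and chance alone flags about 1 in 20 groups. None was a class II member. In iADKO replicate 6, *Ctss* was at 271 CPM (nearest mouse of its group 436), *Cd86* at 14.7 (19.9) and *Zbtb46* at 24.9 (27.7), each the lowest of the group. In the same mouse *Sdc1* was at 141 CPM (nearest 109), *Ccl19* at 0.687 (0.481), *Krt18* at 75.9 (22.8), *Krt8* at 50.2 (23.1) and *Krt5* at 97.7 (19.5), each the highest. In fl/fl replicate 5, *Cd83* was at 26.8 CPM (nearest 16.2) and *Csf1r* at 618 (389.7), each the highest. Without both mice, 9 of 10 class II members were higher in iADKO, as were 3282 of 16769 genes.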

How the results depend on the processing

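Of the class II members, 9 or 10 were higher in iADKO with other size factors, tests and filters and in the 13 fits without 1 mouse. *H2-Ob* passed without fl/fl replicate 7 and without iADKO replicate 3. The count was 5 with the macrophage score, 7 with the B cell score and 0 with the adipocyte score (2 at an unadjusted p under 0.05), and the causes were not tested. Of the other pathway genes, 17 were higher and 2 lower. The higher count was 37 with library totals, 11 with the series block, 2 with the macrophage score, 4 with the B cell score, 0 with the adipocyte score (2 at an unadjusted p under 0.05) and 16 to 22 without 1 mouse. The lower count was 0 with library totals, the series block, the macrophage score and the adipocyte score (1, 2, 1 and 0 at an unadjusted p under 0.05 by edgeR), 1 with no filter or the B cell score, and 1 to 3 without 1 mouse. All genes gave 2367 higher and 2737 lower, against 7397 and 1276 with library totals, 784 and 1202 with the series block, 287 and 407 with the macrophage score and 479 and 982 with the B cell score. With the replicate block, which left out fl/fl replicate 7, 9 members were higher (*H2-Aa* 0.89, *H2-Ob* 0.61 not passing), as were 2379 of 16667 genes. Deviations of same-numbered samples correlated over 0.1 in 3 of 6 pairs (mean 0.107, other pairs -0.02). These values do not settle whether the numbers pair the mice. The main fit did not use the numbers, and the replicate block did. Under the longest transcript, levels per kb in iADKO were 584 for *Cd74*, 346 for *H2-Ab1* and 222 for *H2-Aa*. The order of the members' means was the same, but the overlaps between members were not.

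Log2 fold changes that changed sign, none past the threshold except *Rfxap* with library totals, were as follows. With library totals they were *Rfxap* 0.20, *Nfyc* 0.13, *Zbtb46* 0.06. With the replicate block it was *Rfxap* 0.01, and with the series block they were *Rfxap* 0.03, *Rfxank* -0.04, *Ctsd* -0.03. With the macrophage score they were *Rfx5* -0.03, *Rfxap* 0.07, *Ctss* -0.03, *Ctsl* -0.08, *Ctsb* -0.01, *Ctsd* -0.13, *Sppl2a* -0.06, *Lyz2* -0.11, *Csf1r* -0.02, *Derl3* -0.06, *S100a9* -0.01, *Csf3r* -0.16, *Ccl21a* -0.47, *Dcn* -0.10, *Upk3b* -0.21, *Msln* -0.62, *Lrrn4* -0.53. With the B cell score they were *H2-Ob* -0.03, *Rfx5* -0.00048, *Rfxap* 0.01, *Ctsd* -0.05, *Ccl21a* -0.01. With the adipocyte score they were *H2-Ob* -0.04, *Rfx5* -0.11, *Rfxap* 0.17, *Rfxank* -0.06, *Nfya* -0.18, *Creb1* -0.05, *Ctss* -0.59, *Ctsl* -0.04, *Ctsb* -0.05, *Ctsd* -0.14, *Ctsh* -0.15, *Lgmn* -0.12, *Ifi30* -0.09, *Sppl2a* -0.11, *Marchf1* -0.06, *Cxcl9* 0.59, *Lyz2* -0.67, *Csf1r* -0.36, *Mrc1* -0.03, *Clec10a* -0.17, *Itgax* -0.31, *Cd22* -0.11, *Jchain* -0.16, *Derl3* -0.39, *Cd3g* -0.18, *S100a8* -0.67, *S100a9* -0.72, *Csf3r* -0.84, *Ccl21a* -0.80, *Cxcl13* -0.38, *Fabp4* 0.36, *Cdh5* 0.12, *Dcn* -0.40, *Col15a1* 0.14, *Cd34* -0.09, *Upk3b* -0.81, *Msln* -1.21, *Lrrn4* -1.18. Without both fl/fl replicate 5 and iADKO replicate 6 they were *Nfyb* -0.02, *Pecam1* -0.03, *Myh4* 0.13, *Ckm* 0.21. Over the fits without 1 mouse *Rfxap* ran from -0.03 to 0.02 and *Ckm* from -1.67 to 0.08, above 0 without fl/fl replicate 5. *H2-Oa* and *H2-Eb2*, near 1 to 3 CPM, rest on few counts, and *Ifng* was too low to test.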
